A study of Mus musculus with 6 samples.

Results

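Hivep1, Cds1, Phf13, Sox12, Wtap, Paqr9, Carm1 and Ago2 are 8 mouse genes whose promoters held many positions less methylated in cultured germline stem cells (GSC) than in a reference library. They were selected on the GSC values themselves, as genes with the most such promoter positions, so the GSC promoter values given here are a description and carry no test. The 8 genes stand among 27028 genes to which a promoter could be assigned, and among 7200 promoters with at least 3 listed positions. For each gene the region examined ran from 5000 bp before to 5000 bp after its span in GRCm38, and its promoter was the stretch from 2000 bp upstream to 500 bp downstream of its start.

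The study profiled DNA methylation by reduced representation bisulfite sequencing, which reads a CpG-rich fraction of the genome at single cytosines. All samples were cell lines of the mouse strain OG2 grown in vitro: 1 GSC line, 2 induced pluripotent stem cell (iPSC) lines made from GSC, 2 germline-derived pluripotent stem cell (gPSC) lines, and 1 embryonic stem cell (ESC) line. No treatment, genotype other than the strain, time or animal age is given for any of them, and each line is 1 library, so the iPSC and gPSC groups have 2 lines each and GSC has no replicate. GSC and the 4 pluripotent lines each have a table of positions more methylated (hyper) and a table of positions less methylated (hypo) than a reference. The tables do not name the reference. The ESC line, the one sample without tables, was assumed to be it, so that all 5 libraries share it. The tables hold differences in percentage points with p- and q-values, no levels and no read numbers. Methylation tables carry no expression values, so the cell identity of the lines could not be checked against marker genes.

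A position enters a table only with an absolute difference of at least 25 points and a q-value below 0.01. A position missing from a table was therefore either not covered, not different enough or not significant, and these cannot be told apart. The tables list from 143525 positions (iPSC line 1) to 255689 (GSC), with 891636 entries in all. The depth behind each value is unknown, so no interval is given for a difference.

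CpG-rich promoters are mostly unmethylated in pluripotent cells and in the germline, and methylation of such a promoter is commonly associated with silencing. The 8 genes do not form one pathway. Phf13, Carm1 and Hivep1 act in the nucleus on chromatin and transcription, Sox12 is a transcription factor, Wtap and Ago2 act on RNA, and Cds1 and Paqr9 are membrane proteins. Several have known functions in germ cells or embryonic stem cells: Phf13 in the spermatogonial stem cell pool, Carm1 in histone arginine methylation of pluripotent cells, and Ago2 in small RNA silencing.

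The 4 promoter stretches printed here show what the GSC positions look like in sequence. They are those of the members with the most GSC hypo positions in the RefSeq promoter sequences (GRCm38.p6), which hold 5 of the 8 members. Each is written 5′ to 3′ on the strand of the gene, and capitals mark cytosines listed as hypo in GSC. CCGG, the sequence cut by MspI, the enzyme usual in this assay, bounds the fragments of Cds1, Sox12 and Wtap. The enzyme used is not given in the sources used here. Cds1 is shown from the CCGG site to the base before the gene start, Sox12 as the whole fragment, and Hivep1 and Wtap as 30 bases.
Cds1 (chr5:101765030-101765092, + strand): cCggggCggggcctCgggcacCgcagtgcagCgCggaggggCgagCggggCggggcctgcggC
Sox12 (chr2:152398077-152398181, - strand): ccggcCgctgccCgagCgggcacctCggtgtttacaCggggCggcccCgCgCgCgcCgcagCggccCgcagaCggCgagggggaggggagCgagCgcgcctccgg
Hivep1 (chr13:42052009-42052038, + strand): CgcccaCgCgCggggggaagcCgcCgacct
Wtap (chr17:12992255-12992284, - strand): cCgCggCgCgctCggggCggggCgcagtcC

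The stretches printed were picked for the most GSC hypo positions, which makes capitals dense in them. In these stretches the capitals lie on nearly every CpG, and on one strand. Over the whole RefSeq sequence that holds each stretch, hypo cytosines in GSC numbered 18 with 46 CpG in Cds1 and 17 with 47 in Sox12. There were 11 with 48 CpG in Hivep1 and 19 with 48 in Wtap. In Cds1 the fragment of 112 bp between CCGG sites (101765030 to 101765141) held 20 CpG, and 18 had a hypo cytosine in GSC, all on the strand of the gene. In Sox12 the fragment of 105 bp held 20 CpG and 17 hypo cytosines, and in Wtap the fragment of 98 bp (12992253 to 12992350) held 19 CpG and 19 hypo cytosines. These also lay on the strand of the gene, as did the 11 GSC hypo cytosines in the Hivep1 sequence. Cytosines of one fragment and one strand can be read by the same sequence reads, so about 20 listed positions in a promoter are not 20 independent measurements. Over all RefSeq promoter sequences, 99.9% of 29328 listed positions lay on a CpG cytosine. CCGG (the letters CCGG, the same on both strands) occurred in 52.8% of 32851 promoter sequences.

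In GSC all 8 promoters were called hypo, meaning at least 3 hypo positions that make at least 80% of the listed ones, as the choice of the genes fixes. Over all 7200 promoters the same call was made for 11.2%. The lowest counts among the 8 were 19 hypo positions, in Paqr9, Carm1 and Ago2. Among promoters called hypo in GSC with the window used here, 10 other genes also had 19 or more. They ran from Atp5j with 27 and Ptprf with 22 to Atp2b1, Rala and Gm30150 with 19. Another 8 called promoters had 18, among them Ankrd11, Mta1 and Ubl3. Promoters that were not called are left out of this count, such as Tnrc6b with 23 hypo and 19 hyper positions. The 8 genes are therefore some of the genes at the top of this count, not all of them. The 162 GSC hypo positions in the 8 promoters fell into 21 runs, a run being positions of one direction at most 50 bp apart. The 162 made 95.3% of the listed GSC positions there, a share held high by the choice of the genes. Among all GSC positions 17.1% were hypo.

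In each pluripotent line 1 or 2 of the 8 promoters were called hypo. Such small counts do not show whether the 8 differ from promoters in general, and the GSC count was fixed by the choice. The count was 1 in iPSC line 1 (Paqr9), where 4.11% of all promoters were called, and 2 in iPSC line 2 (Phf13 and Ago2), where 6.58% were. It was 1 in gPSC line 1 (Sox12), with 4.32% of all promoters, and 1 in gPSC line 2 (Cds1), with 3.74%. In all 5 different promoters were called in a line, each in 1 line only. None of the 8 was called hyper in any library. In GSC this was fixed by the choice of the genes, since a promoter called hypo cannot also be called hyper. The share of all promoters called hyper was 15.9% in GSC. It was 8.17% and 7.85% in iPSC lines 1 and 2, and 9.38% and 10.4% in gPSC lines 1 and 2.

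**Figure D1:**
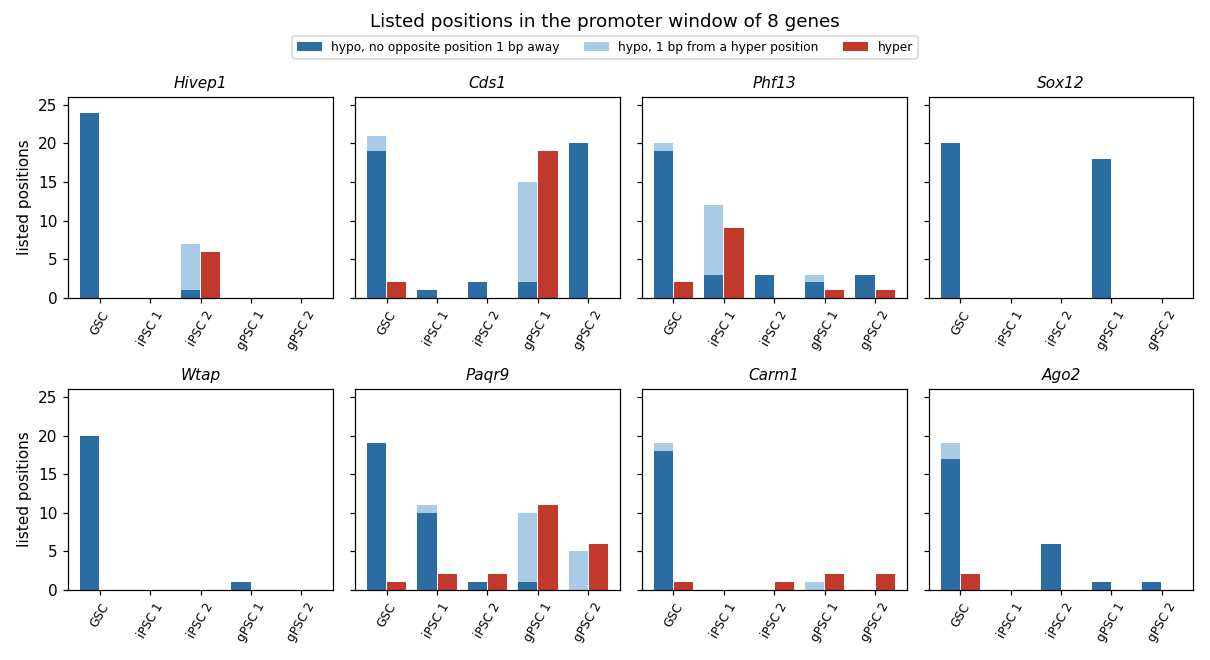
Number of listed positions (vertical axis) in the promoter window of each gene, by library (horizontal axis, 1 library each). Dark blue is hypo with no hyper position 1 bp away, light blue is hypo with one, and red is hyper. GSC holds 19 to 24 hypo positions in every gene, while the highest hypo counts of the lines without any hyper position are 18 for Sox12 in gPSC line 1 and 20 for Cds1 in gPSC line 2.

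Summed over the 8 promoters, hypo positions numbered 162 in GSC, 24 in iPSC line 1, 19 in iPSC line 2, 49 in gPSC line 1 and 29 in gPSC line 2. Hyper positions numbered 8, 11, 9, 33 and 9 in the same order. Positions 1 bp apart can be the paired cytosines of one CpG, on opposite strands, but this was not checked pair by pair. Some hypo positions lay 1 bp from a hyper position of the same library. This held for 6 of the GSC hypo positions (3.70%), 10 in iPSC line 1 (41.7%), 6 in iPSC line 2 (31.6%), 24 in gPSC line 1 (49.0%) and 5 in gPSC line 2 (17.2%). Among all listed hypo positions the share was 40.3% in GSC, 43.6% in iPSC line 1, 32.8% in iPSC line 2, 48.2% in gPSC line 1 and 48.4% in gPSC line 2. Left without such partners were 156 hypo positions in GSC and 14, 13, 25 and 24 in the lines. The GSC share and count here are bound by the choice of the genes. Promoters called hypo hold few hyper positions, and so few such pairs. What such pairs come from was not tested.

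**Figure D2:**
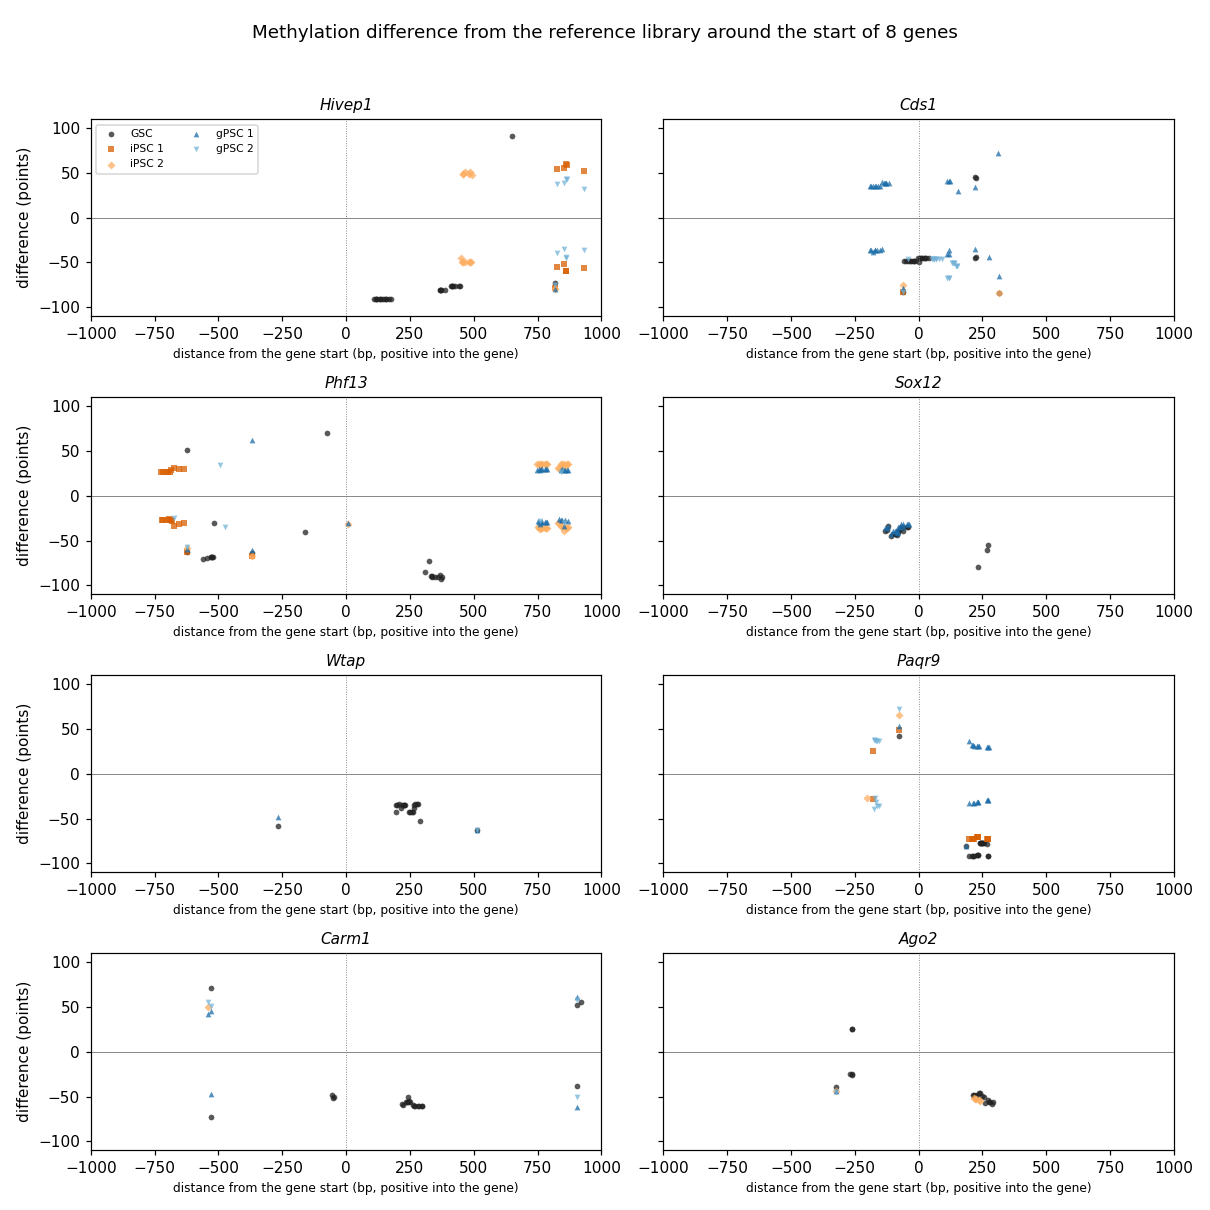
Difference from the reference in percentage points (vertical axis) against distance from the gene start in bp (horizontal axis, positive into the gene) for every listed position within 1000 bp of the start; colours and symbols mark the library. GSC positions form short runs, that of Hivep1 nearest its start at a single level. Mirror-image pairs above and below 0 mark neighbouring positions listed in opposite directions, as for Phf13 near 750 to 871 bp in iPSC line 2 and gPSC line 1.

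Hivep1 encodes a large zinc finger protein that binds enhancer motifs resembling those of NF-kappaB. It lies at 13:42051899-42185030 on the + strand. GSC had 24 hypo and 0 hyper positions in its promoter, with a mean difference of -84.8 points. They made 2 runs. The first held 12 positions from 110 to 176 bp downstream of the start, all at -91.1 points with a q-value of 3.1e-05. The level read in the reference at these cytosines was therefore at least as high as that drop, at unknown depth. The second held 12 positions from 366 to 446 bp downstream, at -81.2 or -76.5 points, with q-values up to 0.00674. The 24 positions thus carried only 3 distinct differences.
The promoter held no listed position in iPSC line 1 and none in gPSC lines 1 and 2. iPSC line 2 listed 7 hypo positions from 452 to 491 bp, at a mean of -48.4 points, and 6 hyper positions at a mean of 49.3 points, and 6 of the 7 hypo positions were 1 bp from a hyper one.

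Phf13 encodes a PHD finger protein that reads methylated histone H3. It lies at 4:151989631-151996179 on the - strand. GSC had 20 hypo and 2 hyper promoter positions, with a mean of -62.3 points, in 5 runs, and 1 of the 20 was 1 bp from a hyper one. A run of 10 lay 309 to 376 bp downstream of the start (-92.7 to -73.2 points), and a run of 7 lay from -559 to -519 bp (-70.2 to -30.4 points). The most negative position was 151995806, at -92.7 points, 373 bp into the gene.
The GSC hypo position at -624 bp was also hypo in all 4 lines, and the one at -368 bp (-63.7 points in GSC) was also hypo in both iPSC lines (-67.3 points each) and in gPSC line 1 (-60.1 points). iPSC line 1 had 12 hypo and 9 hyper promoter positions, 9 of the hypo ones 1 bp from a hyper one. It also had a run of 9 hypo positions without partners from 1239 to 1296 bp downstream, at a mean of -72.6 points. iPSC line 2 had 3 hypo promoter positions and no hyper one, with a mean of -52.5 points, which is why it was called. gPSC lines 1 and 2 had 3 hypo and 1 hyper positions each, with means of -22.1 and -20.5 points, and 1 of the 3 in gPSC line 1 had a partner. Between 750 and 871 bp downstream, outside the promoter window, iPSC line 2 listed 16 hypo positions at a mean of -35.2 points, and gPSC line 1 listed 14 at -29.1 points. All 16 of the former and 13 of the latter had a hyper position 1 bp away.

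Carm1 encodes an arginine methyltransferase that modifies histone H3 and acts as a transcriptional coactivator. It lies at 9:21546894-21589467; its + strand was read from the deposited feature column, as it has no entry in the promoter table. GSC had 19 hypo and 1 hyper promoter positions (mean -50.8 points), of which 15 formed a run 218 to 299 bp downstream at -60.0 to -50.1 points and 3 a run from -55 to -46 bp. The lowest GSC promoter value was -72.8 points at -530 bp, a position 1 bp from a hyper one.
No line had more than 1 hypo position in the Carm1 promoter: iPSC line 1 listed nothing there, iPSC line 2 listed 1 hyper position at 50.1 points, gPSC line 1 listed 1 hypo, 1 bp from a hyper one, and 2 hyper, and gPSC line 2 listed 2 hyper at a mean of 53.2 points.
Outside the promoter, runs of hypo positions between 46336 and 46457 bp downstream of the start, past the Carm1 span and within the span of Timm29, were listed in GSC (8 and 3 positions in 2 runs), iPSC line 1 (6), iPSC line 2 (11) and gPSC line 2 (12). In all but iPSC line 1, where 4 of 6 did, each position of these runs had a hyper position 1 bp away.

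Sox12 encodes a transcription factor of the SoxC family, with Sox4 and Sox11. It lies at 2:152393611-152398046 on the - strand. GSC had 20 hypo and 0 hyper promoter positions, with a mean of -42.8 points: a run of 17 from -130 to -41 bp at -45.3 to -33.6 points, and a run of 3 from 234 to 271 bp downstream at -79.0 to -55.4 points.
Of the lines, only gPSC line 1 listed promoter positions. It had 18 hypo positions in one run from -130 to -39 bp, at -42.9 to -31.9 points (mean -36.4) and with q-values from 0.000625 to 0.00967, and no hyper one. They lie on the same fragment and strand as in GSC, the stretch printed above. At the 17 positions listed in both libraries the difference in gPSC line 1 was 0 to 3.85 points above that of GSC, with a mean of 2.29. iPSC lines 1 and 2 and gPSC line 2 listed nothing in this promoter. Both values were taken against a reference that was assumed to be the same.

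Wtap encodes a regulatory subunit of the complex that writes N6-methyladenosine on messenger RNA. It lies at 17:12966799-12992543 on the - strand. GSC had 20 hypo and 0 hyper promoter positions (mean -38.9 points), 19 of them in one run of 95 bp from 194 to 288 bp downstream, at -52.5 to -33.3 points. The other one, at -267 bp, had the lowest value, -58.7 points.
The same -267 bp position, at -48.7 points, was the only promoter position of Wtap listed in gPSC line 1, and the other 3 lines listed none. Wtap thus had the fewest listed promoter positions in the lines of the 8 genes.

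Ago2 encodes the Argonaute protein that cleaves RNA targets of small RNAs. It lies at 15:73101625-73184947; its - strand was read from the deposited feature column. GSC had 19 hypo and 2 hyper promoter positions (mean -40.0 points). A run of 15 from 212 to 291 bp downstream had -58.7 to -45.9 points, and a run of 3 from -267 to -260 bp had -26.1 to -25.05 points with 2 of its positions 1 bp from a hyper one.
iPSC line 2 listed 6 hypo positions at a mean of -51.8 points and no hyper one, 5 of them in a run 218 to 241 bp downstream. This run lies within the span of the GSC run but holds none of its positions; only the position at -323 bp was listed in both. gPSC lines 1 and 2 listed 1 hypo position each, at -43.4 and -45.0 points, both at -323 bp, and iPSC line 1 listed none.

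Cds1 encodes CDP-diacylglycerol synthase, an enzyme of phospholipid synthesis. It lies at 5:101765093-101823858 on the + strand, and its promoter overlaps the annotated gene Gm42134. GSC had 21 hypo and 2 hyper promoter positions (mean -41.9 points). Of the hypo positions 2 were 1 bp from a hyper one, and 18 formed a run of 104 bp from -62 to 41 bp, from -83.5 to -45.5 points.
gPSC line 2 had 20 hypo and 0 hyper positions, with a mean of -53.2 points; 18 of them formed a run from 53 to 152 bp, just downstream of the GSC run, at -66.8 to -46.1 points. gPSC line 1 had 15 hypo and 19 hyper positions (mean 3.36 points), and 13 of the 15 were 1 bp from a hyper one. In the RefSeq sequence of this promoter its 9 hypo positions lay on the strand of the gene and its 13 hyper positions on the other strand. iPSC line 1 had 1 hypo position (-83.5 points) and iPSC line 2 had 2 (mean -79.5 points). gPSC line 1 had 2 runs of 3 or more hypo positions, one of 8 from -191 to -144 bp and one of 3 from 110 to 120 bp, all with a hyper position 1 bp away. The second lay inside the run of gPSC line 2, where its 3 positions were at -66.8 points. Hypo counts were high in GSC and in both gPSC lines and low in both iPSC lines, but without positions 1 bp from a hyper one gPSC line 1 kept 2 in the whole region, as many as each iPSC line.

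Paqr9 encodes a membrane receptor of the progestin and adipoQ receptor family. It lies at 9:95559634-95568022; its + strand was read from the deposited feature column. GSC had 19 hypo positions in one run of 88 bp, 186 to 273 bp downstream, at -92.3 to -77.8 points, and 1 hyper position. The lowest value, -92.3 points at 196 bp, was the largest absolute GSC difference in the Paqr9 region; in the other 7 regions that was a hyper position outside the promoter, at 95.7 points in Phf13 and 100 points in the rest.
iPSC line 1 had 11 hypo and 2 hyper promoter positions. Of these, 10 hypo positions made a run from 196 to 273 bp at -72.3 to -71.1 points, none with a partner. At the 11 positions listed in both, iPSC line 1 stood a mean of 17.5 points above GSC. These include a hyper position outside the run, at -78 bp, with 42.0 points in GSC and 48.6 in iPSC line 1. gPSC line 1 listed 10 hypo positions from 186 to 273 bp, from -80.8 to -29.8 points, together with 11 hyper positions, and 9 of the 10 had a hyper position 1 bp away. At the 11 positions listed in both, again with the hyper one at -78 bp (53.1 points in gPSC line 1), gPSC line 1 stood a mean of 49.5 points above GSC. In gPSC line 1 the position at 267 bp was listed at -29.8 points and the next, at 268 bp, at 29.8 points. gPSC line 2 had 5 hypo positions from -176 to -156 bp, all 5 paired, and 6 hyper ones. iPSC line 2 had 1 hypo and 2 hyper positions.

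**Figure D3:**
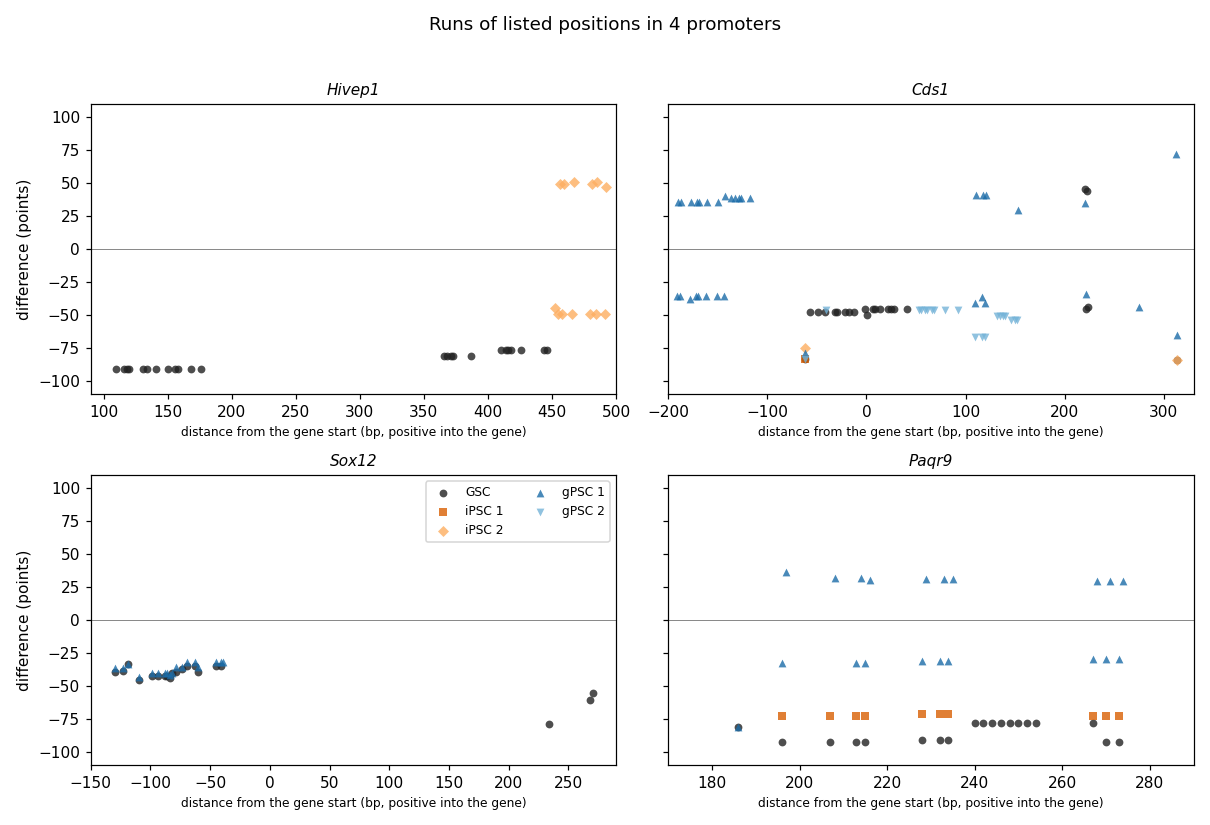
Difference from the reference in percentage points (vertical axis) against distance from the gene start in bp (horizontal axis) for stretches of the Hivep1, Cds1, Sox12 and Paqr9 promoters that hold their longest GSC runs; colours and symbols mark the library. Upstream of the Sox12 start the GSC and gPSC line 1 points lie together between -45.3 and -31.9 points, and in Paqr9 iPSC line 1 lies closer to 0 than GSC while gPSC line 1 lies on both sides of 0.

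Outside the promoters the regions of these genes held mostly hyper positions in GSC. GSC listed 109 hyper and 18 hypo positions there, 14.2% hypo against 17.1% of all its positions. The lines listed 43, 64, 52 and 63 hyper positions and 27, 37, 21 and 28 hypo positions, in the order iPSC lines 1 and 2 and gPSC lines 1 and 2. The hypo share there was 38.6%, 36.6%, 28.8% and 30.8%, against 17.6%, 21.8%, 18.0% and 12.8% of all listed positions of the same line. Many of these hypo positions had a hyper position 1 bp away: 77.8% in GSC, and 33.3%, 73.0%, 81.0% and 71.4% in the lines. Without paired positions of either direction the hypo share there was 4.04% in GSC and 34.6%, 21.3%, 10.3% and 15.7% in the lines, against 11.9%, 11.7%, 17.1%, 11.3% and 7.55% of all unpaired positions of the 5 libraries. These rest on 4, 18, 10, 4 and 8 hypo positions. Of the 6 and 9 hypo positions of Hivep1 in iPSC line 1 and gPSC line 2, 5 and 7 were paired. Hivep1 had the most GSC hyper positions outside the promoter, 32 with a mean of 59.3 points, and its lines had 29, 18, 19 and 29 with means of 53.2, 49.2, 57.9 and 54.1 points. Ago2 had 14 in GSC with a mean of 77.9 points, and 4, 6, 3 and 10 in the lines. In iPSC line 2 the mean in Ago2 was 87.3 points, and in the other lines 31.3, 46.9 and 38.9.

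**Figure D4:**
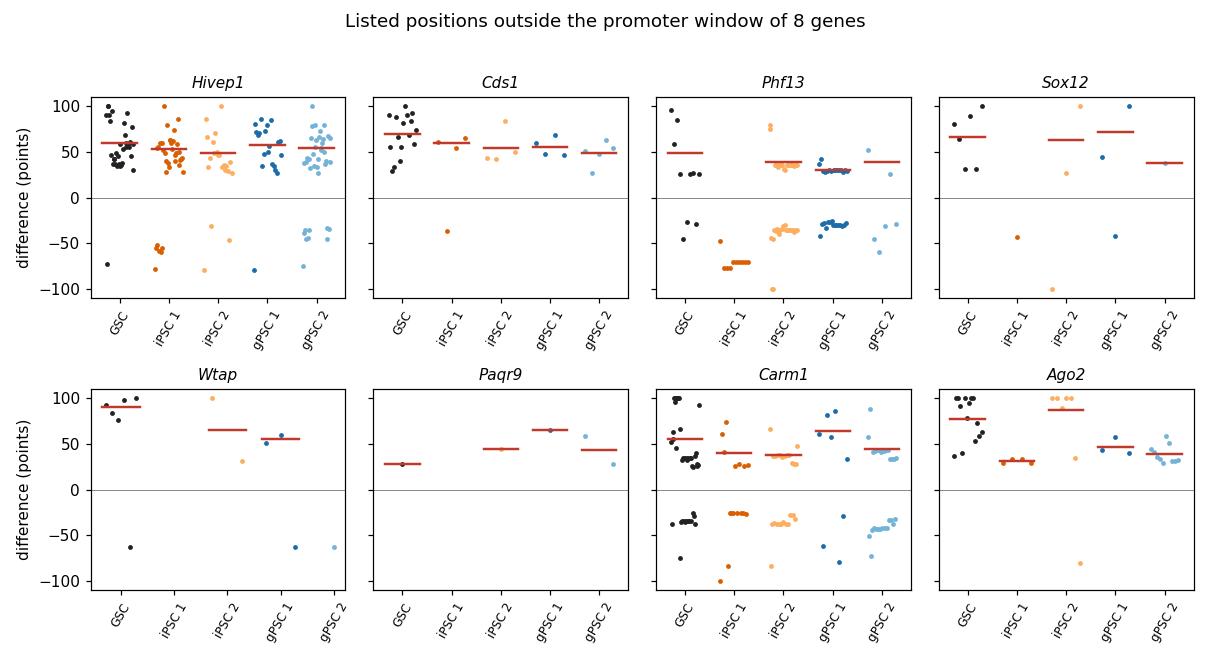
Difference from the reference in percentage points (vertical axis) for every listed position outside the promoter window, by gene and library (horizontal axis); points within a library are in genome order, and red bars are means of its hyper positions. Hyper positions outnumber hypo ones in Hivep1 in all 5 libraries, and Phf13 in iPSC line 1 has 10 hypo and 0 hyper positions.

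In all, 14 positions in the 8 regions were listed in all 5 libraries in one direction. Of these, 3 lay in promoters. Cds1 101765031, 62 bp before the start and the cytosine of a CCGG site, was at -83.5 points in GSC. It was at -83.5 and -75.2 points in iPSC lines 1 and 2, and at -78.9 and -83.5 points in gPSC lines 1 and 2. Phf13 151996803 was at -63.3 points in GSC and -63.3 to -57.1 in the lines. Paqr9 95559556 was hyper, at 42.0 points in GSC and from 48.6 to 71.9 in the lines. The other 11 were 8 hyper positions, 6 of them in Hivep1 and 2 in Cds1, and 3 hypo positions. The hypo ones were Hivep1 42052717 (-79.7 to -72.5 points), Carm1 21592992 (-84.3 to -73.2) and Phf13 151988560 (-47.5 to -42.0). In the Carm1 and Phf13 regions these positions lay past the spans of the 2 genes, within the spans of Timm29 and Thap3. For a position hypo in all 5 libraries, low libraries and a high shared reference cannot be told apart. Over all promoter sequences, 52.4% of 397 positions hypo in all 5 libraries lay in a CCGG, against 22.2% of GSC hypo positions and 11.1% of CpG cytosines. These CpG cytosines include any that the libraries did not cover, so the 11.1% is not a baseline for listed positions.

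The 2 iPSC lines and the 2 gPSC lines were compared gene by gene on the number of hypo and of hyper positions in the whole region, 16 tests in all. With 2 lines against 2, a two-sided exact permutation test cannot go below p = 0.333, so none could pass 0.05, and every Benjamini-Hochberg adjusted p was 1 in this permutation test. The lines' hypo counts did not overlap for 3 of the 8 genes, against 13.6% of 16911 gene regions with at least 1 hypo position in a line. The hyper counts did not overlap for 2 of the 8, against 16.1% of 25042 gene regions with at least 1 hyper position. Those regions were not matched to the 8 genes for the number of listed positions. Cds1 had 2 hypo positions in each iPSC line against 15 and 20 in the gPSC lines, and 3 and 4 hyper against 23 and 5. Without positions 1 bp from an opposite one its hypo counts were 2 and 2 against 2 and 20, which overlap, and its hyper counts 3 and 4 against 10 and 5. Without gPSC line 1 the difference in hyper positions, iPSC minus gPSC, went from -10.5 to -1.5. Phf13 had 22 and 23 hypo positions in the iPSC lines against 18 and 7, and without paired positions 13 and 7 against 3 and 7, so that the groups touched. Wtap had 0 and 0 hypo positions against 2 and 1, with and without paired positions. Paqr9 had 2 and 3 hyper positions in the iPSC lines against 12 and 8, and without paired positions 1 and 3 against 3 and 3, which overlap. For the other genes the lines overlapped. In Sox12, for example, the hypo counts were 1 and 1 against 19 and 0. There gPSC line 1 alone had a high count, and gPSC line 2 lay below both iPSC lines. Whether the lines of a group came from separate cultures or animals is not given beyond their being independent lines, so the spread between them may be partly technical.

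Genes related to the 8 by family or pathway were listed for comparison: 37 genes, of which 34 had a known strand and 16 had at least 3 listed promoter positions. In GSC 2 of these 16 promoters were called hypo, a share near the 11.2% of all promoters, and 0 hyper (15.9% of all promoters). In the lines the calls were 1 hyper in iPSC line 1 (8.17% of all promoters), 1 hypo in iPSC line 2 (6.58%), 1 hypo and 1 hyper in gPSC line 1 (4.32% and 9.38%) and 1 hyper in gPSC line 2 (10.4%). With so few calls, the list cannot be set apart from promoters in general. Sox11, a SoxC factor like Sox12, had 10 hypo positions at a mean of -47.5 points, and Dicer1, which cuts the small RNAs loaded into Ago2, had 11 at -63.1 points. In the lines Sox11 had 1, 0, 0 and 2 hypo positions and Dicer1 had 0, 2, 3 and 0, and neither was called.
Crls1, cardiolipin synthase, which uses the product of the Cds enzymes, was called hypo in iPSC line 2 with 13 hypo positions at -34.0 points; in GSC its 14 hypo and 10 hyper positions gave no call. Prmt8, an arginine methyltransferase like Carm1, was called hypo in gPSC line 1 with 11 positions at -68.5 points and had 1 hypo position in each of the other 4 libraries. Prmt1, the main arginine methyltransferase of this family, was called hyper in iPSC line 1 (3 positions, mean 39.4 points) and in gPSC line 1 (4 positions, mean 49.1 points). Sox4 was called hyper in gPSC line 2 (5 hyper and 1 hypo position, mean 35.1 points). No related gene was called in 2 libraries other than Prmt1.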

How the data were processed

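The values are the authors' deposited tables of differentially methylated positions, 2 for each of 5 libraries (10 tables), which give a position, a p-value and q-value, and a difference in methylation in percent or, for hypo positions, a negative number of percentage points. Per the submitters' processing notes, Bismark, Bowtie2, GATK and methylKit were used, with the builds mm10 and GRCm38; for the role of each tool, the read depth, the coverage minimum and the reference library the entry is: not given in the sources used here. Values were neither rescaled nor tested again.

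Gene spans are those of the RefSeq table (GRCm38.p6). Strands came from the RefSeq promoter sequences, or, for Paqr9, Carm1 and Ago2, from the deposited feature column, which annotated plus-strand genes: of 3809 genes with at least 10 listed positions, all of them annotated, 3122 were on the plus strand, and of 2083 with none annotated 1828 were on the minus strand. The region had 5000 bp on each side, the promoter ran from 2000 bp upstream to 500 bp downstream, and a call needed 3 positions and 80% of one direction. Runs joined positions at most 50 bp apart, and a partner was a position of opposite direction 1 bp away.

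All 8 genes are named, with related genes called in a library, positions with the largest GSC difference or listed in all 5 libraries, and the sequence of 4 members. The genes just below and above the GSC count were named after their values were seen. The members and lists were chosen with earlier results of these data known. iPSC and gPSC lines were compared by a two-sided exact permutation test with Benjamini-Hochberg adjustment. Alternatives were other limits on difference, q-value, window and partners. Python 3.11.15, numpy 2.4.6 and pandas 2.3.3 were used; counting was tested on simulated data.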

Additional observations from a re-analysis of the deposited data

How the results depend on the processing

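Depth is unknown and each line is 1 library, so small differences between lines cannot be separated from noise. Of the recomputed totals and counts of calls, 62 were within 1.5 times the value reported and 53 were not. Totals over the 8 regions are given in the order GSC, iPSC 1, iPSC 2, gPSC 1, gPSC 2, or for the named libraries. Without positions 1 bp from an opposite one the 4 lines had 32, 23, 29 and 32 hypo and 35, 40, 44 and 47 hyper positions, and without those within 50 bp 27, 21, 26 and 28 hypo and 35, 39, 35 and 45 hyper. With differences of at least 50 points there were 97, 30, 15, 9 and 17 hypo and 70, 20, 22, 26 and 28 hyper. With q-values of at most 0.001 there were 117 hypo in GSC, 29 in iPSC 1, 42 in gPSC 1 and 30 in gPSC 2. Over the gene span with no margin there were 119, 27, 35 and 32 hypo in the same 4 libraries and 45 hyper in gPSC 2. With each run counted as 1, an alternative chosen after seeing the data, there were 28, 15, 20, 21 and 17 hypo and 64, 30, 37, 39 and 42 hyper. Promoter calls in GSC numbered 6 with q-values of at most 0.001, 7 at 50 points and 8 otherwise. In iPSC 1 they became 2 without positions 1 bp from an opposite one and 0 with q-values of at most 0.001. In iPSC 2 they became 1 at 50 points, with q-values of at most 0.001, with a promoter of 1000 bp on each side, and with at least 5 positions. In gPSC 1 they became 0 at 50 points and with q-values of at most 0.001.

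The iPSC minus gPSC difference in counts changed sign in 16 of 144 recomputed values and in 13 of 64 with 1 line left out. The 144 include values that pair lines of the same number, which leave each difference as it was and cannot change sign. A difference of 0, as for hyper positions of Wtap, could not be counted as a change of sign either. For hypo positions, Paqr9 became 5 and 5.5 without positions 1 bp from or within 50 bp of an opposite one, 4.5 at 50 points and 0.5 with runs as 1. Sox12 became 0.5 at 50 points and 0.5 with no margin. Carm1 became -0.5 at 50 points, -1 with no margin, -1.5 with 2000 bp on each side and -0.5 with runs as 1. Hivep1 became -0.5 with q-values of at most 0.001. For hyper positions, Phf13 became -1.5 without positions 1 bp from an opposite one and -2 with runs as 1, Hivep1 -2.5 at 50 points and -3 with q-values of at most 0.001, and Ago2 1 at 50 points. Other differences shrank without a change of sign: without positions 1 bp from or within 50 bp of an opposite one, Cds1 hypo went from -15.5 to -9 and -8.5, Cds1 hyper from -10.5 to -4 and -1, Paqr9 hyper from -7.5 to -1 and -0.5, and Phf13 hypo from 10 to 5 and 5.5. With runs as 1 these 4 were -1.5, -3, -0.5 and 0. With 1 line left out, hypo differences ranged from -1 to 7 for Hivep1, -18 to 1 for Sox12, -6.5 to 3.5 for Paqr9, -3.5 to 6.5 for Carm1 and -1 to 6 for Ago2. Hyper differences then ranged from -2.5 to 7.5 for Hivep1, -3.5 to 10.5 for Phf13, -1.5 to 0.5 for Sox12, -5.5 to 3.5 for Carm1 and -5 to 2 for Ago2. The cause of these changes was not tested. The replicate block, which pairs lines of the same number, left the differences as they were and gave exact permutation p-values of 0.5 or 1; the labels do not say that the numbers pair lines.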
